A study of Mus musculus with 6 samples.

Results

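Hepcidin, the peptide hormone that limits iron entry into the blood, was followed here together with the genes of the bone morphogenetic protein (BMP) pathway that set its level in the hepatocyte. The 10 genes were listed by name as members of this pathway, with no threshold on their values, although earlier results of these data were known when the list was made: the hepcidin genes Hamp and Hamp2, the ligand gene Bmp6, the sensors and co-receptor Hfe, Tfr2 and Hfe2, the protease gene Tmprss6, the pathway targets Id1 and Smad7, and Slc40a1, which encodes ferroportin. They were among the 23282 genes of the deposited table, and all 10 had reads. Of these, 9 had enough reads for the test, and Bmp6 did not.

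RNA came from primary hepatocytes of C57BL6/N mice, obtained by collagenase perfusion of the liver and cultured for 24 h, of which 3 samples had no treatment (control) and the other 3 received IL-1β as recombinant protein. Sequencing used QuantSeq, a method that reads the 3′ end of each polyadenylated RNA. The design text counts 2 samples in each group but names 3, and the 3 in the table were all used here. They are called control 1 to 3 and IL-1β 1 to 3 after their labels. The labels name no dose of IL-1β, and the dose the study states for its recombinant proteins is not tied in its text to the sequenced samples. They also do not say whether the samples came from separate mice or cultures, so the p-values measure only the spread between these samples, which may be technical.

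Hepcidin binds ferroportin, the only known iron exporter of mammalian cells, and causes its degradation, so that iron stays in macrophages, enterocytes and hepatocytes. In the iron-loaded liver, BMP ligands from sinusoidal endothelial cells act on receptors of the hepatocyte with hemojuvelin as co-receptor, and phosphorylated SMAD proteins then activate the hepcidin gene at BMP-response elements. Inflammation acts through a second route, in which interleukin-6 activates STAT3 at a site close to the promoter-proximal BMP-response element. The mouse carries a duplicated hepcidin gene, and the product of Hamp, but not that of Hamp2, is established as the iron-regulating hormone.

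The promoters of the hepcidin genes are shown because reads were counted on both genes and changed unequally between the groups, although the sequences are close. In the deposited table, Hamp spans 30942369 to 30944017 and Hamp2 30922372 to 30924181 on the minus strand of chromosome 7 (mm10/GRCm38). In another annotation, GENCODE, Hamp2 extends to 30924681, and 17686 bases separate the genes. The Hamp2 bases printed below therefore lie inside the GENCODE gene, though before the RefSeq start. The 250 bases before the annotated RefSeq start (GRCm38.p6, minus strand, printed 5′ to 3′) are chr7:30944030-30944279 for Hamp and chr7:30924182-30924431 for Hamp2. Capitals mark the BMP-response element GGCGCC and the STAT element TTCNNNGAA of Hamp and the bases aligned with them in Hamp2.
Hamp: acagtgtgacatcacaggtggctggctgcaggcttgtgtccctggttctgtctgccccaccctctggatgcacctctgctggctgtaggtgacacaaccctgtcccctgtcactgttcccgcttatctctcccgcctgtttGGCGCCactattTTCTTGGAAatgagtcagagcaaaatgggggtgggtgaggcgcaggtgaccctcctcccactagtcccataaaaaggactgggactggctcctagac
Hamp2: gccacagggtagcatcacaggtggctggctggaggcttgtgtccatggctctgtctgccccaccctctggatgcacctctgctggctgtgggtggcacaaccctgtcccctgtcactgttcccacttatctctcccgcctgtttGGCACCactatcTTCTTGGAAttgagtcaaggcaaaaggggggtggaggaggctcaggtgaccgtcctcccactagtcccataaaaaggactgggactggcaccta

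The Hamp window held GGCGCC 109 to 104 bases before the start, followed by TTCTTGGAA 97 to 89 bases before it. At the aligned place of the Hamp2 window, 106 to 101 bases before its start, the bases were GGCACC, a single substitution (G4A, positions counted from 1 at the 5′ end of the element, Hamp base first). The STAT element was the same in both genes and lay 94 to 86 bases before the start of Hamp2. The windows of 300 bases, which run from 250 before to 50 after the start, aligned over 297 bases, of which 276 (92.9%) were identical and 21 differed. Both patterns read the same on either strand, and they did not overlap each other. Among all 32851 RefSeq promoter windows of this length, 11.9% held GGCGCC, 8.3% held TTCNNNGAA, 0.645% held both, and 27 windows (0.0822%), that of Hamp among them, held both within 20 bases of each other. RefSeq windows matched 5 of the 10 genes, with 7 windows in all, and neither pattern occurred in the windows of Tfr2, Hfe and Bmp6. A match of letters describes the sequence and does not show that a factor binds there.

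**Figure D1:**
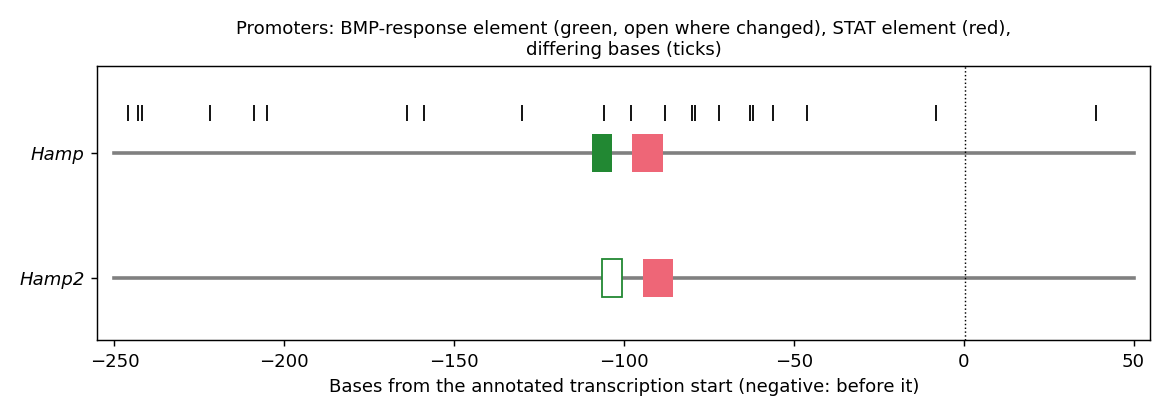
Promoter windows of Hamp and Hamp2, with the distance in bases from the annotated transcription start on the horizontal axis. Filled green is the BMP-response element of Hamp, open green the aligned place in Hamp2 with 1 substitution, red the STAT element found in both, and the ticks the 21 bases that differ between the windows.

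Libraries held between 9538741 and 11105408 counted reads, of which the ribosomal RNA precursor Rn45s took 11.7% to 14.2%. Levels are given as raw reads and as CPM, which relates the reads on a gene to the library total after TMM scaling. A count of 3 reads in a library, taken as the limit of detection and covering the error of counting alone, equals 0.269 to 0.321 CPM. The quasi-likelihood test of edgeR, adjusted by Benjamini-Hochberg over the 11657 genes tested, called 1563 genes at an adjusted p below 0.05, which is 13.4% of those tested. The median log2 fold change over all genes tested was -0.002. An exact permutation test of 3 against 3 samples cannot give a two-sided p below 0.1.

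Hamp rose 9.85-fold with IL-1β, and no other of the 10 genes was called higher. Of the 9 genes tested, Hamp was called higher, where 6.97% of all genes were higher, and Hfe2, Tmprss6 and Slc40a1 were called lower, where 6.44% of all genes were lower. In 5 of the 9, the control and IL-1β samples did not overlap, against 28.2% of all genes. The median log2 fold change of the 9 was -0.15. The BMP target genes Id1 and Smad7 were not called in either direction. In bulk RNA, fewer cells of a type and less RNA per cell cannot be told apart.

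**Figure D2:**
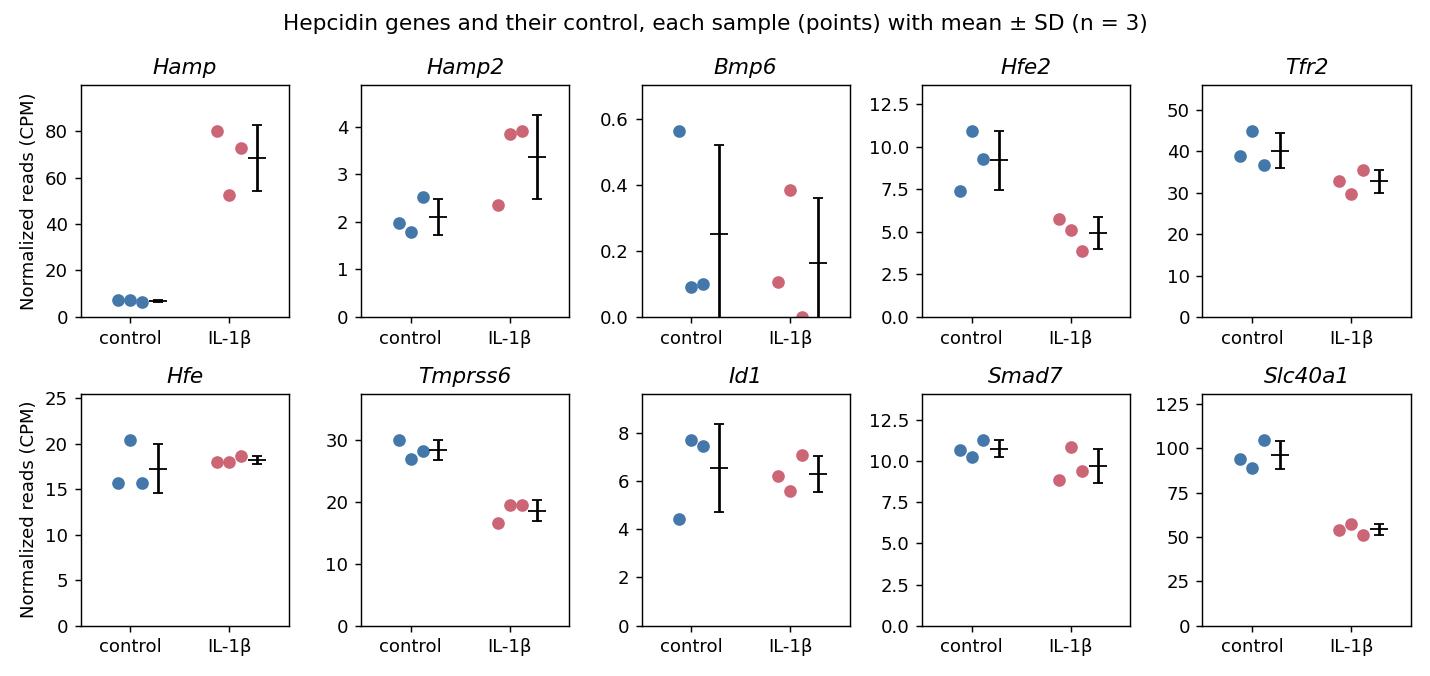
Normalized reads (CPM) of each gene in the 3 control and 3 IL-1β samples (points), with the mean and SD (n = 3) beside them and a separate linear axis from 0 for each gene. Hamp is higher in all IL-1β samples, Hfe2, Tfr2, Tmprss6 and Slc40a1 are lower in all of them, and the other genes overlap between groups. The error bars of Bmp6 are cut at 0.

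Hamp held 76, 79 and 65 reads in the control samples and 748, 545 and 785 in the IL-1β samples. Each IL-1β sample was far above each control sample, and among the IL-1β samples the second had the fewest reads. The level was 6.92 ± 0.323 CPM (SD, n = 3) in control and 68.4 ± 14.4 CPM (SD, n = 3) after IL-1β. In edgeR's quasi-likelihood test, the log2 fold change was 3.30 (standard error, SE, 0.152, 95% interval 2.99 to 3.61, adjusted p = 1.56e-14), which is 9.85-fold with an interval of 7.93 to 12.2. The exact permutation test gave p = 0.1, the smallest possible here. Of the 11657 genes tested, 31 had a larger log2 fold change than Hamp.

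Hamp2, the duplicate, held 21, 20 and 25 reads in control and 22, 40 and 42 reads after IL-1β. The first IL-1β sample lay within the range of the controls and the other two lay above it. The level was 2.09 ± 0.379 CPM (SD, n = 3) in control and 3.37 ± 0.879 CPM (SD, n = 3) after IL-1β, with a log2 fold change of 0.69 (95% interval -0.07 to 1.46, edgeR adjusted p = 0.272). The interval ran from 0.95-fold to 2.74-fold, so an increase of the size seen was not detectable as a change at this depth.

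Reads on Hamp as a share of the reads on both genes describe how the reads were split within each library, as counted by the authors. This share was 78.4% (95% Wilson interval 69.2 to 85.4), 79.8% (70.9 to 86.5) and 72.2% (62.2 to 80.4) in the control samples. After IL-1β it was 97.1% (95.7 to 98.1), 93.2% (90.8 to 94.9) and 94.9% (93.2 to 96.2). No control interval reached any IL-1β interval, although these intervals cover counting error only. The mean share was 76.8% ± 4.02 in control and 95.1% ± 1.99 after IL-1β (SD, n = 3 each), and the log2 ratio of Hamp to Hamp2 was 2.62 higher after IL-1β (p = 0.1 in a two-sided exact permutation test, the smallest it can give).

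**Figure D3:**
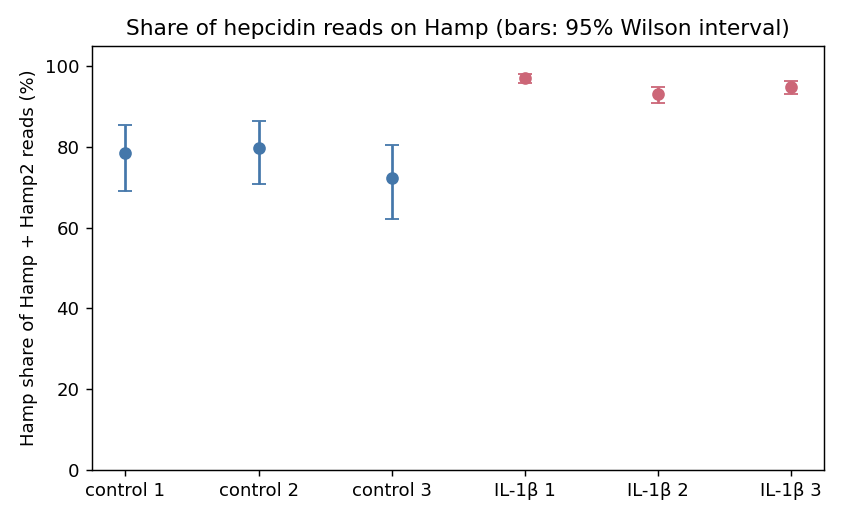
Share of the reads on Hamp and Hamp2 together that were counted on Hamp (%), in each sample, with the 95% Wilson interval as error bars. The control samples lie between 72.2% and 79.8% and the IL-1β samples between 93.2% and 97.1%.

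How reads that match both genes were counted is not given in the sources used here, so the split between them is uncertain. The annotated transcripts were 94.6% identical over 410 aligned bases. Of the 336 stretches of 75 bases (the read length) in the Hamp transcript, 13 (3.87%) also occurred unchanged in Hamp2, and 171 matched Hamp2 with at most 2 mismatches. With the reads of both genes added, the sum rose by a log2 fold change of 2.99 (SE 0.14, 95% interval 2.70 to 3.28, edgeR adjusted p = 3.68e-14). A noncoding gene on the plus strand, Gm44662, spans both hepcidin genes. Whether its exons overlap theirs was not examined, and whether counting used strand is also not given. It is therefore not known whether any of its reads were counted on the hepcidin genes.

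The ligand gene Bmp6 (chromosome 13, 38345716 to 38499728, plus strand) held 6, 1 and 1 reads in control and 1, 4 and 0 reads after IL-1β. Only control 1 and IL-1β 2 were above the limit of 3 reads, and the gene was left out of the test by the filter on low counts. In liver, Bmp6 is known mainly from sinusoidal endothelial cells. It also overlaps the minus-strand genes Txndc5 and 4930579J19Rik. No change in Bmp6 was detectable at this depth.

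Hfe2 encodes hemojuvelin, the BMP co-receptor of the hepatocyte surface (chromosome 3, 96525185 to 96529216, plus strand). It held 79, 122 and 92 reads in control and 54, 53 and 42 after IL-1β, and each IL-1β sample was below each control sample. The level fell from 9.20 ± 1.75 to 4.92 ± 0.946 CPM (SD, n = 3 each), a log2 fold change of -0.91 (SE 0.242, 95% interval -1.41 to -0.41, edgeR adjusted p = 0.0114). The call was lost when control 2 or IL-1β 3 was left out, with log2 fold changes of -0.76 in both cases and edgeR adjusted p of 0.0804 and 0.0785.

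Transferrin receptor 2, the product of Tfr2 (chromosome 5, 137569840 to 137588081, plus strand), senses iron-loaded transferrin. Its reads numbered 413, 501 and 365 in control and 308, 310 and 382 after IL-1β, and in CPM the groups did not overlap, at 36.8 to 44.9 against 29.8 to 35.5. The log2 fold change was -0.30 (95% interval -0.53 to -0.06, edgeR adjusted p = 0.0924), which did not pass the threshold. With libraries scaled by total counts alone it did, at -0.35 with an adjusted p of 0.0353.

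Hfe (chromosome 13, 23703841 to 23710811, minus strand) encodes the MHC class I-like protein that is altered in the most common hereditary hemochromatosis and that binds both transferrin receptors. It held 167, 228 and 156 reads in control and 168, 187 and 201 after IL-1β, and the IL-1β samples lay within the control range. The log2 fold change was 0.07 (95% interval -0.23 to 0.38, edgeR adjusted p = 0.837).

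Tmprss6 (chromosome 15, 78439667 to 78468634, minus strand) encodes matriptase-2, a serine protease of the hepatocyte surface that lowers hepcidin by cleaving hemojuvelin. Reads on it numbered 319, 300 and 280 in control and 155, 203 and 210 after IL-1β, with no overlap between the groups. Its level fell from 28.4 ± 1.56 to 18.5 ± 1.7 CPM (SD, n = 3 each), a log2 fold change of -0.61 (SE 0.128, 95% interval -0.87 to -0.35, edgeR adjusted p = 0.00131). Both the co-receptor gene Hfe2 and the gene of the protease that cleaves its product were lower.

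**Figure D4:**
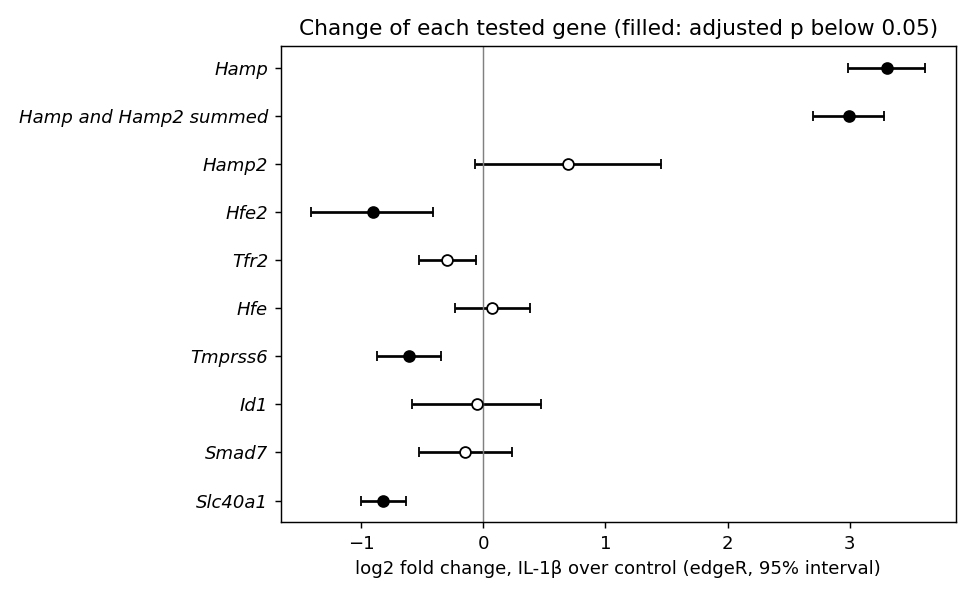
Log2 fold change of IL-1β over control for the 9 tested genes and for the sum of Hamp and Hamp2 (horizontal axis, 0 is no change), with 95% intervals from edgeR and filled points for an adjusted p below 0.05. Hamp and the sum lie near 3, and the interval of Hamp2 lies below that of Hamp.

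Id1, a transcriptional regulator that BMP and SMAD signals induce directly (chromosome 2, 152736251 to 152737410, plus strand), held 47, 86 and 74 reads in control and 58, 58 and 76 after IL-1β. The first control sample was the lowest of all, and the IL-1β samples lay between the lowest and the highest control. The log2 fold change was -0.05 (95% interval -0.58 to 0.47, edgeR adjusted p = 0.941). The interval spans 0.668-fold to 1.39-fold, so smaller changes were not detectable, and the sign turned when any of 3 samples was left out.

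Smad7 encodes an inhibitory SMAD that the pathway induces as feedback. Its reads numbered 114, 115 and 112 in control and 83, 113 and 101 after IL-1β, and in CPM the groups overlapped. The log2 fold change was -0.15 (95% interval -0.53 to 0.24, edgeR adjusted p = 0.713), and the upper bound of the interval corresponds to 1.18-fold.

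Slc40a1 (chromosome 1, 45908070 to 45925594, minus strand), the ferroportin gene, held 1003, 996 and 1039 reads in control and 507, 599 and 553 after IL-1β. The groups were far apart, and the samples of each were close together. The level fell from 96.03 ± 7.92 to 54.4 ± 3.07 CPM (SD, n = 3 each), a log2 fold change of -0.82 (SE 0.0888, 95% interval -1.003 to -0.64, edgeR adjusted p = 1.54e-07), which is a decrease of 43.3%. Hamp was higher, and the gene of the receptor on which its product acts lower, in the same 3 samples.

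Hepatocyte markers moved in the same direction as the 3 lower genes. Of 10 hepatocyte markers tested, 8 were lower and none higher, where 6.44% of all genes were lower. Their median log2 fold change was -0.36. The summed level of the list was 30610 to 31370 CPM in control and 24900 to 26710 CPM after IL-1β. Among the most abundant, Alb fell by 0.20 and Gc by 0.58 on the log2 scale, and Fgb was at -0.04 (adjusted p of 0.0113, 2.29e-08 and 0.824 from edgeR). The call on Alb was lost without control 2 or IL-1β 1 (edgeR adjusted p of 0.0744 and 0.0894) and in limma on log2(CPM + 1) or log2(CPM + 0.1) (0.0882 and 0.0569). Cps1 and Pck1, defining genes of the hepatocyte in tissue, held only 18 to 33 and 0 to 13 reads and are named after their values were seen. Each other marker of the list held at least 1319 reads in every sample. The part of the hepatocyte markers in the decreases of Hfe2, Tmprss6 and Slc40a1 was not tested.

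Ferroportin is also known from Kupffer cells, the macrophages of the liver. Of 8 Kupffer and macrophage markers tested, 0 were called by edgeR or by the other tools with all samples and 2 had an unadjusted p below 0.05, and 1 was called without control 1. Of all genes tested, 13.4% were called. The median log2 fold change of the 8 markers was 0.38. The summed level over all 11 was 210.4 to 241 CPM in control and 214.3 to 243.6 CPM after IL-1β. Cd68, Cd5l and Marco, the most abundant of the list, had log2 fold changes of -0.06, -0.21 and 0.67 (adjusted p of 0.7, 0.392 and 0.141 from edgeR). Reads per sample over both groups numbered 150 to 224 for Cd5l, 32 to 68 for Marco and 26 to 65 for Csf1r. They numbered 16 to 57 for C1qa, 15 to 56 for C1qb, 10 to 30 for C1qc and 5 to 24 for Adgre1. Clec4f held 0 to 27 reads, Timd4 0 or 1 and Vsig4 0 to 7. Beside Cd5l and Marco, these genes are named after their values were seen. Cd68 alone made up most of the summed level. The part of macrophages in the decrease of Slc40a1 was not tested.

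Other BMP and activin ligands held 1 call in each direction. Of 11 genes, 5 were tested, with 1 higher and 1 lower, where 6.97% of all genes were higher and 6.44% lower. The median log2 fold change of the 5 was 0.13, and Bmp5 was at 0 in every sample. Bmp4 rose from 106 ± 19.2 to 193 ± 23.5 CPM (SD, n = 3 each), a log2 fold change of 0.87 (SE 0.102, edgeR adjusted p = 5.55e-07). Bmp2, known in liver chiefly as an endothelial ligand that acts on hepcidin beside Bmp6, fell from 12.8 ± 0.774 to 8.12 ± 1.44 CPM (SD, n = 3 each), or by 0.65 on the log2 scale (edgeR adjusted p = 0.0225). Its edgeR adjusted p was 0.0511 without control 1, 0.129 without IL-1β 1 and 0.0549 without IL-1β 2.

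Sinusoidal endothelial markers were present at low levels, with 9 of 10 tested, 1 higher, 2 lower and a median log2 fold change of -0.50. Of all genes tested, 6.97% were higher and 6.44% lower. The summed level of the endothelial list was 59.4 to 64.1 CPM in control and 55.8 to 60.04 CPM after IL-1β. The most abundant of them were Lyve1, Cdh5 and Pecam1. Lyve1 was higher by 0.45 (edgeR adjusted p = 0.0274), a call that was lost without control 1, control 3, IL-1β 2 or IL-1β 3 (0.0807 to 0.137) and with total-count scaling (0.0507). Cdh5 was at 0.32 and Pecam1 at -0.31 on the log2 scale (adjusted p of 0.336 and 0.58). The 2 lower markers, Clec4g and Kdr, were less abundant and are named after their values were seen. Clec4g held 72, 48 and 63 reads in control and 3, 7 and 14 after IL-1β, and Kdr held 41, 51 and 52 against 17, 19 and 13, which are decreases of 2.87 and 1.49 on the log2 scale (adjusted p of 1.90e-05 and 0.00511 from edgeR). The other 4 tested markers, Stab1, Stab2, Oit3 and Fcgr2b, were at 0.25, -1.16, -0.50 and -0.82 (adjusted p of 0.654, 0.209, 0.349 and 0.153). The part of endothelial cells in the decrease of Bmp2 was not tested. Of stellate cell and cholangiocyte markers, 3 of 9 and 1 of 4 were tested, and edgeR called 0 in each list, with 0 and 1 at an unadjusted p below 0.05. They had median log2 fold changes of 0.52 and 0.21, and summed levels of 20.3 to 24.2 and 128 to 137.9 CPM in control against 22.8 to 27.6 and 147.9 to 158.4 CPM after IL-1β. Among the most abundant of these, Dcn and Col3a1 for stellate cells and Sox9 for cholangiocytes had log2 fold changes of 0.14, 0.52 and 0.21, and Sox9 was called by DESeq2 (adjusted p = 0.0414). Col1a2, at 1 to 22 reads, Krt19, at 0 to 6, and Krt7, at 0 to 2, were too low to test.

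Receptors and SMADs of the pathway rose in 3 of 9 tested genes of a list of 12 and fell in none. Of all genes tested, 6.97% were higher. The median log2 fold change of the list was 0.17, and Bmpr1b was at 0 in every sample. Neo1, which encodes the hemojuvelin-binding receptor neogenin, rose by 0.53 (SE 0.123, edgeR adjusted p = 0.004). The type I receptor gene Acvr1 rose by 0.54 and the type II receptor gene Bmpr2 by 0.33 (adjusted p of 0.0189 and 0.032). The call on Acvr1 was lost without control 2 or any single IL-1β sample (edgeR adjusted p of 0.0657 to 0.142). That on Bmpr2 was lost without control 2, control 3, IL-1β 2 or IL-1β 3 (0.0506 to 0.194) and with upper-quartile or total-count scaling (0.0526 and 0.0844), so that 1 call was left in the list without IL-1β 2 or IL-1β 3. Of the SMAD genes in the list, Smad1, Smad5 and Smad4 were not called, at log2 fold changes of 0.19, 0.17 and 0.07. Smad9 held 23, 6 and 15 reads in control and 2, 5 and 4 after IL-1β. In CPM its groups did not overlap, and it was too low to test. All 4 are named after their values were seen.

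Of 17 tested inhibitors of the pathway, from a list of 22, 5 were higher, none lower and 12 not called. Among all genes tested, 6.97% were higher. The median log2 fold change of the list was -0.10, and Nog was at 0 in every sample. Fgl1, which encodes a secreted hepatocyte protein that binds BMP6, rose from 764 ± 66.3 to 1005 ± 74.4 CPM (SD, n = 3 each), a log2 fold change of 0.40 (SE 0.0692, edgeR adjusted p = 1.76e-04). Smurf1, a ubiquitin ligase gene that acts on SMADs, rose by 0.39, and Skil, a SMAD repressor gene, by 0.31 (adjusted p of 0.0113 and 0.0343). Fst, whose product follistatin binds chiefly activins, was higher by 0.55 and Spint2, whose product inhibits serine proteases, by 0.66 (adjusted p of 0.0197 and 0.0187), and for both of these the control and IL-1β samples overlapped. Spint2 inhibits TMPRSS6 among other proteases, so the count of 5 includes a gene whose product acts on a protease of the pathway and not against the BMP signal itself. The number of calls in the list was 2 without control 2, IL-1β 1 or IL-1β 2 and 3 without IL-1β 3. Smurf1 lost its call without IL-1β 2 (edgeR adjusted p = 0.0964), Spint2 without control 2, control 3, IL-1β 1 or IL-1β 3 (0.0745 to 0.139), Fst without control 2 or any single IL-1β sample (0.0602 to 0.109) and Skil without any single sample other than control 3 (0.0528 to 0.143). Fst also lost it in DESeq2 (0.343) and Skil with upper-quartile or total-count scaling (0.0566 and 0.0991).

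BMP target genes beside Id1 and Smad7 were mostly too low to test, with 2 of 11 tested, and Dlx3 was at 0 in every sample. Id2 held 1024, 1159 and 1116 reads in control and 478, 622 and 586 after IL-1β, with no overlap, a decrease of 0.92 in log2 units (SE 0.0891, edgeR adjusted p = 2.34e-08). Id3 was at 0.12 (95% interval -0.10 to 0.34, adjusted p = 0.581) and is named after its value was seen. Among the Id genes that BMP signals induce, Id2 was lower, and Id1 and Id3 were not called. Id4, at 3 to 16 reads and also named after its values were seen, was too low to test. Without control 2, 2 genes of the list were called. The list shares Smad6, Smad9 and Bambi with the receptor and inhibitor lists, which had too few reads for the test.

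**Figure D5:**
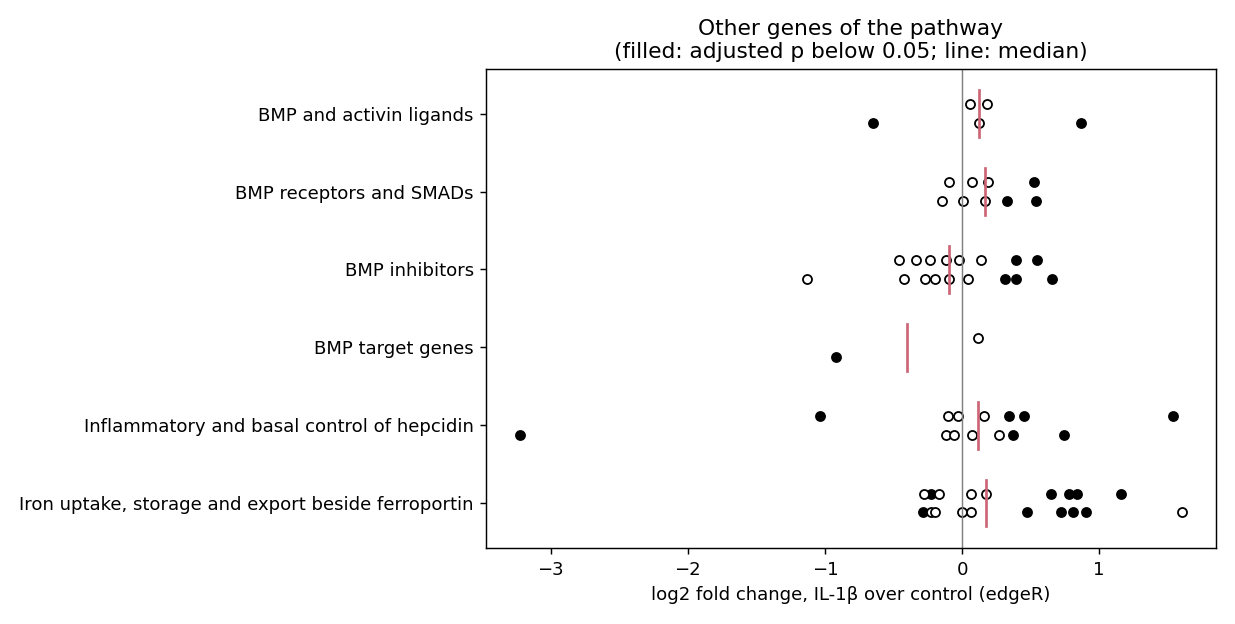
Log2 fold change of IL-1β over control for the tested genes of each pathway list (horizontal axis), with filled points for an adjusted p below 0.05 from edgeR and a red line at the median of each list. The medians lie between -0.40 and 0.17, and the iron handling and inflammatory control lists hold most of the filled points.

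Genes of the inflammatory and basal control of hepcidin were tested in 14 of 15 cases, with 5 higher and 2 lower. Among all genes, 6.97% were higher and 6.44% lower. The median log2 fold change of the list was 0.12. Socs3, a STAT3 target that restrains cytokine signalling, held 181, 204 and 211 reads in control and 536, 569 and 564 after IL-1β, an increase of 1.54 on the log2 scale (SE 0.113, edgeR adjusted p = 1.31e-10). Stat3 itself rose by 0.37 and Cebpb, a transcription factor gene of the acute phase, by 0.75 (adjusted p of 4.72e-04 and 1.37e-05). The interleukin-6 receptor gene Il6ra rose by 0.45 and Cebpa, whose product is needed for basal hepcidin expression, by 0.35 (adjusted p of 0.0078 and 0.0142), both named after their values were seen. Il6 held no reads in control and 5, 0 and 6 reads after IL-1β, was not tested, and is likewise named after its values were seen.

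The 2 lower genes of the inflammatory and basal control list, Creb3l3 and Hnf4a, fell in the samples in which Hamp rose. Creb3l3 encodes a membrane-bound factor that is released under endoplasmic reticulum stress and can activate Hamp. It held 428, 471 and 273 reads in control and 48, 27 and 44 after IL-1β, with a log2 fold change of -3.23 (SE 0.203, edgeR adjusted p = 6.11e-12). Hnf4a, the gene of a nuclear receptor that maintains hepatocyte transcription, held 901, 1019 and 865 reads in control and 390, 456 and 458 after IL-1β, with a log2 fold change of -1.04 (SE 0.0872, adjusted p = 1.62e-09). Neither gene overlapped between the groups.

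Iron handling genes beside ferroportin changed mostly upward. All 19 were tested, with 8 higher and 2 lower, where 6.97% of all genes were higher and 6.44% lower. Their median log2 fold change was 0.17. Fth1, the heavy chain of the iron store ferritin, rose by 0.78 from 3486 ± 203 to 5969 ± 205 CPM (SD, n = 3 each, edgeR adjusted p = 1.54e-10). The importer gene Slc11a2 rose by 0.90 and Slc39a14, which takes up iron not bound to transferrin, by 1.16 (adjusted p of 1.97e-09 and 2.58e-09). The light chain gene of ferritin, Ftl1, did not pass, at -0.17 with no overlap between groups in CPM (adjusted p = 0.0745). Cp, the plasma ferroxidase that assists ferroportin, rose by 0.72 and Bach1, a heme-binding repressor gene, by 0.81 (adjusted p of 1.78e-08 and 2.32e-07). Steap3, an iron reductase gene, and Aco1, which encodes an iron-regulatory protein, were at -0.28 and -0.23 (adjusted p of 0.0787 and 0.0966). Fth1, Slc11a2 and Slc39a14 were higher in the samples in which the exporter gene Slc40a1 was lower. Named after their values were seen, as are Ftl1, Steap3 and Aco1, the genes Tfrc, Slc39a8 and Nfe2l2 rose by 0.65, 0.84 and 0.47, while Trf (transferrin) fell by 0.22 and Hmox1 by 0.29 on the log2 scale.

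Genes whose pattern over the 6 samples was most like that of Hamp were Ptprf, Slc16a1, Epn2, Stap2 and Gdpd1, with Pearson's r of log2(CPM + 1) from 0.9962 to 0.9989 among 7979 genes with a mean of at least 10 CPM. Their log2 fold changes were 0.48, 1.23, 0.78, 0.43 and 0.91, each smaller than that of Hamp. The 6 points form groups of 3, and both values of a point come from the same library, so r mostly reflects the difference between the groups. Most like Id1 among 7980 genes were Tgs1, Sgpp1, Vps33b, Gpr89 and Prpf39 (r from 0.9755 to 0.9840), with log2 fold changes between -0.03 and 0.02.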

How the data were processed

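Total RNA of 6 samples of primary mouse hepatocytes (3 control, 3 IL-1β) was sequenced with single-end 75-nt reads on an Illumina NextSeq 550. Per the labels, the authors aligned the reads with Bowtie2 (mm10/GRCm38) and normalized with TMM and CPM in edgeR. Versions and the tool that counted reads are not given in the sources used here. The authors deposited raw read counts per gene, which were used here. Columns of log2 normalized values, group averages, fold changes and p-values made by the authors were not used. Groups were taken from the sample labels.

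The analysis ran in R 4.3.3 and used edgeR 4.0.16 (filterByExpr, TMM, quasi-likelihood test) and Benjamini-Hochberg adjustment over 11657 genes, without pairing. The standard error is the log2 fold change divided by the square root of F. Tested on simulated data for this comparison (11657 genes, 200 of them changed 2-fold up or down), the procedure called 79% of the changed genes, and 5.39% of its calls were unchanged genes. Exact permutation tests used scipy 1.17.1 and promoter alignment Biopython 1.88. A symbol of the iron list, Tf, was matched to Trf through the table of aliases. Of 23282 listed genes, 16189 had a count.

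The 10 genes, the pathway and marker lists and the tests were chosen with earlier results of these data known, the genes by name and not by a threshold. Named were all 10 genes, at most 5 members of each list with the smallest adjusted p below 0.05, list members at 0 in every sample, the 3 most abundant markers of each cell type, and the 5 genes most like Hamp and Id1. Alternatives were the exact test of edgeR, DESeq2 1.42.0, limma 3.58.1 on log2(CPM + 1) or log2(CPM + 0.1), scaling by the upper quartile or by total counts, testing every gene with a count or those with 10 or more counts in each sample, a block for the replicate number, omission of Rn45s or of each sample in turn, and an adjusted p below 0.01.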

Additional observations from a re-analysis of the deposited data

How the results depend on the processing

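The count of genes called was 1488 to 1728 with all 6 samples under the other tools, filters and scalings and 996 at an adjusted p below 0.01, and 1131 to 1596 when each sample was omitted in turn. Total-count scaling made 39.6% of the calls increases, against 52% with TMM, and moved the median of all genes to -0.055. Of the 10 pathway genes, 4 were called under every alternative except total-count scaling (5, with Tfr2), an adjusted p below 0.01 (3), and without control replicate 2 or IL-1β replicate 3 (3 each, without Hfe2). Hamp stayed between 3.11 and 3.31 and the sum of Hamp and Hamp2 between 2.84 and 2.995 with all samples, and between 3.18 and 3.47 and between 2.89 and 3.14 with 1 left out. Id1 turned to 0.091, 0.048 and 0.031 without control replicate 2, control replicate 3 and IL-1β replicate 2 (-0.271 to 0.091 over all omissions), and Fgb, a hepatocyte marker, to 0.017, 0.013 and 0.002 without control replicate 2, IL-1β replicate 1 and IL-1β replicate 3 (-0.112 to 0.017). Sox9 passed the threshold in DESeq2, limma with a pseudocount of 1, the stricter filter, the replicate block and without control replicate 1. With the replicate block 1671 genes were called, and it ended no call of the 10 genes. Deviations of same-numbered samples correlated by 0.075, 0.0275 and -0.00497, so no pairing by number was seen. With deviations from means of so few samples, this cannot exclude a pairing. The cause of these shifts was not tested. Bmp6 gave -0.59 (adjusted p = 0.879) without the filter, and with 8 and 5 reads in all depth limits any statement on it.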
